A study of Homo sapiens with 3 samples.

Results

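Chemokines of neutrophil recruitment and of inflamed epithelium were examined in SAS, a cell line from a human squamous carcinoma of the tongue. Of the 29402 genes with a symbol, 10 chemokine genes were taken by name (CXCL1, CXCL2, CXCL3, CXCL5, CXCL6, CXCL8, CCL20, CXCL10, CXCL16 and CCL2), each represented by 1 probe set of the Affymetrix Human Gene 2.0 ST array. Among the 3 arrays of the series, 2 hold RNA of cells given siRNA against ARID1A by lipid transfection, where ARID1A is a DNA-binding part of SWI/SNF, a complex that remodels chromatin. They are called array 108 (replicate 1) and array 109 (replicate 2) after their titles. The third array came from mock SAS cells, and the labels do not say whether those cells received a control siRNA or the reagent alone. Nor do the labels say whether the siRNA arrays stand for separate cultures or separate siRNA sequences, so the spread between them may be technical. The genes were chosen as a family, and selected on their log2 differences between the siRNA arrays and the mock array, so these values are given as a description, without a test.

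Chemokines are small secreted proteins that bind G protein-coupled receptors on leukocytes and direct their migration. The neutrophil-attracting CXC chemokines CXCL1, CXCL2, CXCL3, CXCL5, CXCL6 and CXCL8 carry a Glu-Leu-Arg motif ahead of their first cysteines and act through CXCR2, and CXCL6 and CXCL8 also through CXCR1. Squamous carcinoma cells are a known source of several of them, and NF-kB is the best known inducer of this gene group, acting through sites close to the gene start.

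Promoter windows from RefSeq (GRCh38.p14, 250 bases before to 50 after the gene start) were at hand for 8 of the 10 genes, all but CXCL16 and CCL2. The letters searched on both strands were the NF-kB consensus, a shorter NF-kB form GGAANTTCC that can lie inside the consensus, the AP-1 motif TGANTCA, the interferon-stimulated element GAAANNGAAA and the TATA box TATAAA. Bases -140 to -21 from the gene start are shown for the neutrophil chemokines because all 6 carry an NF-kB match close to the gene start. Capitals mark the matches, and each window reads 5′ to 3′ on the strand of its gene. The windows lie at chr4:73869253-73869372 for CXCL1 (plus strand), chr4:74099216-74099335 for CXCL2 (minus strand), chr4:74038710-74038829 for CXCL3 (minus strand), chr4:73998698-73998817 for CXCL5 (minus strand), chr4:73836538-73836657 for CXCL6 (plus strand) and chr4:73740429-73740548 for CXCL8 (plus strand).
CXCL1: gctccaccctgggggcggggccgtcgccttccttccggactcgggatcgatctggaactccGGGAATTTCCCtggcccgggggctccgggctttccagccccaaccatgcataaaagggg
CXCL2: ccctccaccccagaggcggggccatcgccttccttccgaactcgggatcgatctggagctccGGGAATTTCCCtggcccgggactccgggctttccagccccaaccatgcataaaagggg
CXCL3: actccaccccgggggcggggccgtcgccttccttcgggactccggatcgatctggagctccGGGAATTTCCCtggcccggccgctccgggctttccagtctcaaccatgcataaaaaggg
CXCL5: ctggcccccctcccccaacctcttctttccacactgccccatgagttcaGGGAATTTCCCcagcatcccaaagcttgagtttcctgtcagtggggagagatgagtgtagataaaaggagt
CXCL6: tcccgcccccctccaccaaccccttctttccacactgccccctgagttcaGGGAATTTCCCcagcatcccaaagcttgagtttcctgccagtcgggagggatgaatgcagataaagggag
CXCL8: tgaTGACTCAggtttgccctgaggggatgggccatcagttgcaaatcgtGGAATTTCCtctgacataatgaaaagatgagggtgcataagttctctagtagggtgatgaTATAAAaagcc

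The same stretch of CCL20 (chr2:227813702-227813821, plus strand) is shown because its NF-kB match lies at the same distance from the start as that of CXCL1. Bases -230 to -111 of CXCL10 (chr4:76023608-76023727, minus strand) are shown because they hold the only interferon-stimulated element among the 8 windows, besides 2 separate NF-kB matches.
CCL20: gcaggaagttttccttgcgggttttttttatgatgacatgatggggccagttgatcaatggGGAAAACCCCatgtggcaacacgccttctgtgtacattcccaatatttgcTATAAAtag
CXCL10: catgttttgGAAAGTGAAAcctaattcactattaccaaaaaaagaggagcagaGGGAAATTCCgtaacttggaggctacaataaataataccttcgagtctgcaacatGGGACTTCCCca

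The NF-kB consensus was found in 7 of these 8 windows, against 11.3% of all 35116 RefSeq promoter windows. The short form was found in 7 of 8 too, against 0.965% of all windows. CXCL8 had the short form only, at -91 to -83, and CCL20 the consensus only, at -79 to -70. CXCL1 and CXCL3 matched the consensus at the same place, -79 to -70, and CXCL2 at -78 to -69. The AP-1 motif was found in CXCL8 alone, at -137 to -131, against 7.71% of all windows. The TATA box letters were found in CXCL8 and CCL20, against 11.5%, and the interferon-stimulated element in CXCL10, against 3.57%. Over the whole windows CXCL1 and CXCL3 were 82.5% identical, CXCL1 and CXCL2 71.9%, and CXCL5 and CXCL6 83.1%, while the 24 pairs across these gene groups ranged from 45.2% to 55.4%. Genes that share ancestry share these letters, so the matches are not independent of each other. Where a motif was not found, the search says only that these letters are not in this window.

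**Figure D1:**
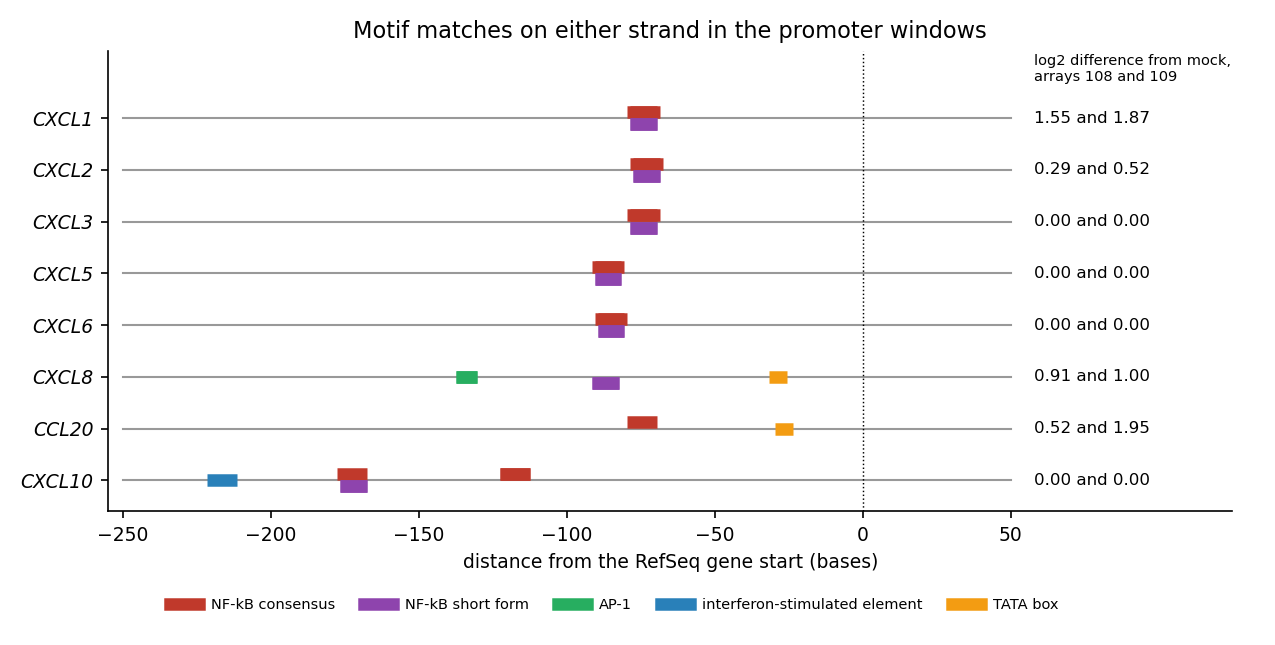
Positions of the motif matches in the 8 promoter windows, as distance in bases from the RefSeq gene start (dotted line), with the log2 differences of arrays 108 and 109 from the mock array printed on the right. NF-kB matches appear in every row. The differences of 0 (CXCL3, CXCL5, CXCL6 and CXCL10) come from values below background on all arrays, so the rows do not compare responses.

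Values below are the authors' normalized log2 values per probe set. The authors' mean of negative controls, used as a floor, lay at log2 4.36 on array 108, 4.65 on array 109 and 4.43 on the mock array. Levels of different genes are not set against each other, because each comes from its own probes. The targeted gene ARID1A read log2 5.72 and 5.32 with arrays 108 and 109, against 6.79 in mock cells, so both siRNA arrays lay below the mock array as labelled. Median values over all probe sets were 3.97, 3.99 and 3.97 on arrays 108, 109 and mock, and 38.0% of the 20582 genes that passed a filter on low values were tied across the 3 arrays.

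Of the 10 chemokines, 5 lay above mock by any amount with both siRNA arrays (CXCL1, CXCL2, CXCL8, CCL20 and CCL2), as did 13.1% of all genes that passed the filter. A further 4 were tied across the 3 arrays (CXCL3, CXCL5, CXCL6 and CXCL10), beside 38.0% of all genes, and CXCL16 was higher on array 108 alone, by 0.08. CXCL2, CCL20, CXCL16 and CCL2, 4 of 10, were above the floor on all 3 arrays, beside 64.5% of all genes. None of the 10 was lower on both siRNA arrays by any amount, beside 16.2% of all genes that passed the filter. The 4 tied genes were below every floor, so a lower value could not have been seen in them. At 1.5-fold on both siRNA arrays, 2 of 10 were higher (CXCL1 and CXCL8), and 0.34% of the 20582 genes were. With values raised to the floor the count was 1 (CXCL1), and the mean difference of CXCL8 was 0.13 in place of 0.96. At 2-fold, 1 of 10 was (CXCL1), and 0.0389% of genes. The choice of the genes used these values, so nothing is read from that contrast. The mean log2 difference had a median of 0.22 over the 10 chemokines and of 0 over all genes that passed the filter. The filter kept 8 of the 10 and left out CXCL6 and CXCL10. Among the 8, the lowest mock value was 3.56, in CXCL8, so each would have lain above the filter value of 3.52 on the mock array too. In limma over all 20582 genes, 0 passed a false discovery rate of 5%, while an unadjusted p under 0.05 was reached by 197 genes on the higher side and 213 on the lower.

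**Figure D2:**
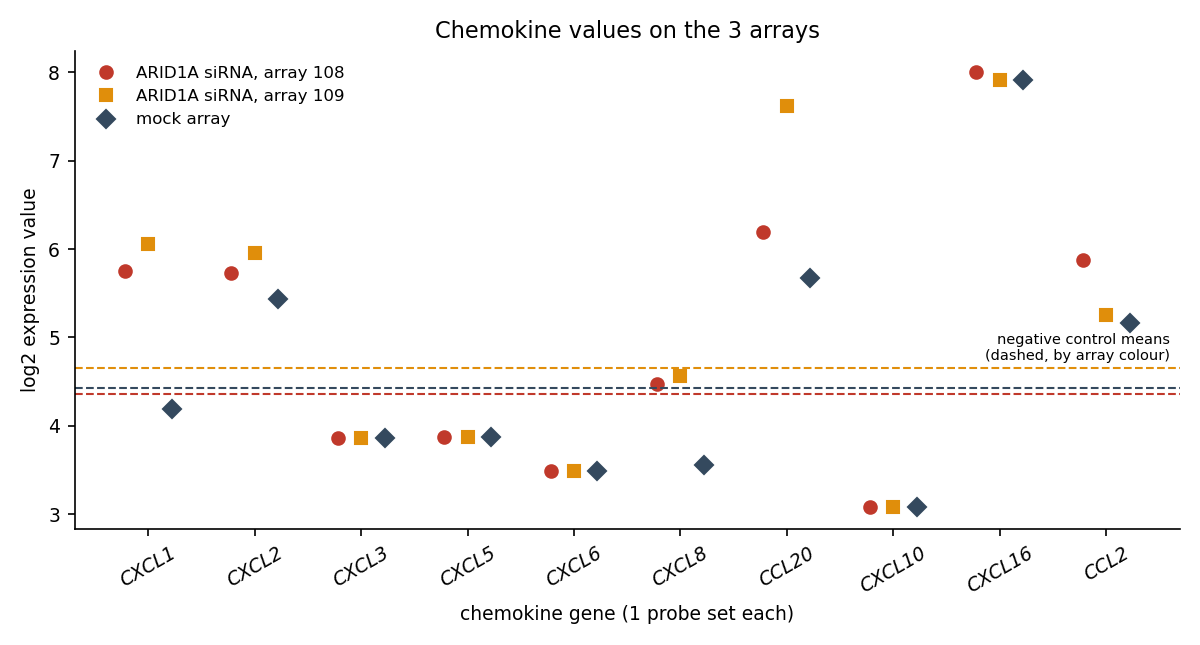
Log2 expression value of each chemokine on array 108 (circles), array 109 (squares) and the mock array (diamonds), with the negative control mean of each array as a dashed line in its colour. CXCL1 lies below the line on the mock array (4.20) and above it on both siRNA arrays (5.75 and 6.06), while CXCL3, CXCL5, CXCL6 and CXCL10 have 1 value each on all arrays, below every line.

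CXCL1 (GRO-alpha), a neutrophil chemokine on chromosome 4, had the highest mean difference from the mock array. Its log2 value read 5.75 with array 108 and 6.06 with array 109, against 4.20 in mock cells. In a bulk sample, more expressing cells and more RNA per cell cannot be told apart. Both siRNA arrays lay above their floors, and the mock value had a distance of -0.23 from its own. The mean log2 difference was 1.71 ± 0.22 (SD, n = 2), rank 1 of the 20582 genes ordered from the highest difference to the lowest, at rank 4 on array 108 and rank 3 on array 109. Since the mock value was not above the floor, the siRNA mean is at least 2.79-fold above it. In the authors' deposited table the ratios were 2.94 and 3.65, both marked as 2-fold increases. The SD over the siRNA arrays was small beside this difference, but the mock array has no replicate.

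CXCL8 (interleukin 8), the classical neutrophil attractant, read log2 4.47 with array 108 and 4.56 with array 109, against 3.56 in mock cells. The siRNA arrays lay close to each other and both above the mock array, with a mean difference of 0.96 ± 0.07 (SD, n = 2), rank 27 of 20582. All of these values were near or below the floor. The distance of CXCL8 from the floor was 0.11 on array 108, -0.09 on array 109 and -0.87 on the mock array. The siRNA mean was 1.06-fold above the mock floor. Since array 109 lay below its own floor, this is no lower bound on the difference. The authors' deposited table gives ratios of 1.88 and 2.00 and marks neither. Per the file headers, a mark needs a ratio of at least 2 and an siRNA value not under the negative control mean, so array 108 missed the ratio and array 109 the floor. The value on array 108 was shared by 276 other probe sets, so its distance from nearby values is coarse. Values of other members were shared too. For CXCL1 this held with 47 other probe sets on array 108 and 35 on array 109, and for CXCL2 with 41 on array 108. For CCL2 it held with 75 on array 109 and 110 on the mock array.

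CXCL2 (GRO-beta), a close paralogue of CXCL1, was above the floor on all arrays. It read log2 5.72 with array 108 and 5.96 with array 109, against 5.43 in mock cells. Both siRNA arrays lay above the mock array, with differences of 0.29 and 0.52 and a mean of 0.41 ± 0.16 (SD, n = 2), rank 327. CXCL2 was thus on the same side as CXCL1, at a difference smaller on each array. CXCL3 (GRO-gamma), the third of these paralogues, was at log2 3.87 on all 3 arrays, below every floor.

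CXCL5, an epithelial neutrophil chemokine, and its neighbour in sequence CXCL6 were not above background on any array either. CXCL5 was at log2 3.88 on all 3 arrays and CXCL6 at 3.49. These values carry no information on a difference between the conditions, since a transcript below the floor could differ without its being seen. CXCL1, CXCL2 and CXCL3 have closely related transcripts, and although none of the 10 probe sets is marked as cross-hybridising in the authors' deposited table, shared signal between them was not tested.

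CCL20, the ligand of CCR6 that attracts Th17 cells and immature dendritic cells to epithelium, had the largest positive difference of all 20582 genes on array 109 and a much smaller one on array 108. It read log2 6.20 with array 108 and 7.62 with array 109, against 5.67 in mock cells, all above the floor. The siRNA arrays lay on the same side of the mock array, by 0.52 and 1.95, at rank 210 and rank 1. The mean difference was 1.23 ± 1.01 (SD, n = 2), so the spread between the siRNA arrays was close to the size of the difference itself. Array 109 was 2.68-fold above array 108, rank 40 of 20582 by the distance between the siRNA arrays. In the authors' deposited table the ratios were 1.44 and 3.85, with a mark on array 109 only.

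CCL2 (MCP-1), a monocyte attractant that acts on CCR2, showed the opposite order of the siRNA arrays. It read log2 5.88 with array 108 and 5.25 with array 109, against 5.16 in mock cells, each above the floor. The difference was 0.71 on array 108, rank 79, and 0.09 on array 109, rank 3224. The mean of 0.40 was smaller than its SD of 0.44 (n = 2), so CCL2 was not separable from the mock array by the spread of the siRNA arrays. Leaving out array 109, CCL2 was at least 1.5-fold higher (0.71), and leaving out array 108, CCL20 was (1.95), which made the count 3 of 10 in each case, beside 0.768% of genes on array 108 and 1.15% on array 109.

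CXCL16, a transmembrane chemokine that is shed from the cell surface and binds CXCR6, was well above the floor on every array. It was at log2 8.0 on array 108, 7.92 on array 109 and 7.92 on the mock array, with a mean difference of 0.04 ± 0.06 (SD, n = 2). CXCL10, an interferon-induced chemokine for CXCR3 on T cells, was at log2 3.08 on all arrays, with a distance of -1.28 from the nearest floor. Thus the groups overlapped or were equal for 5 of the 10 chemokines (CXCL3, CXCL5, CXCL6, CXCL10 and CXCL16), and 4 of those 5 were not above background anywhere. Over all 20582 genes, 13.1% were higher and 16.2% lower on both siRNA arrays by any amount, and the rest overlapped or were equal too.

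**Figure D3:**
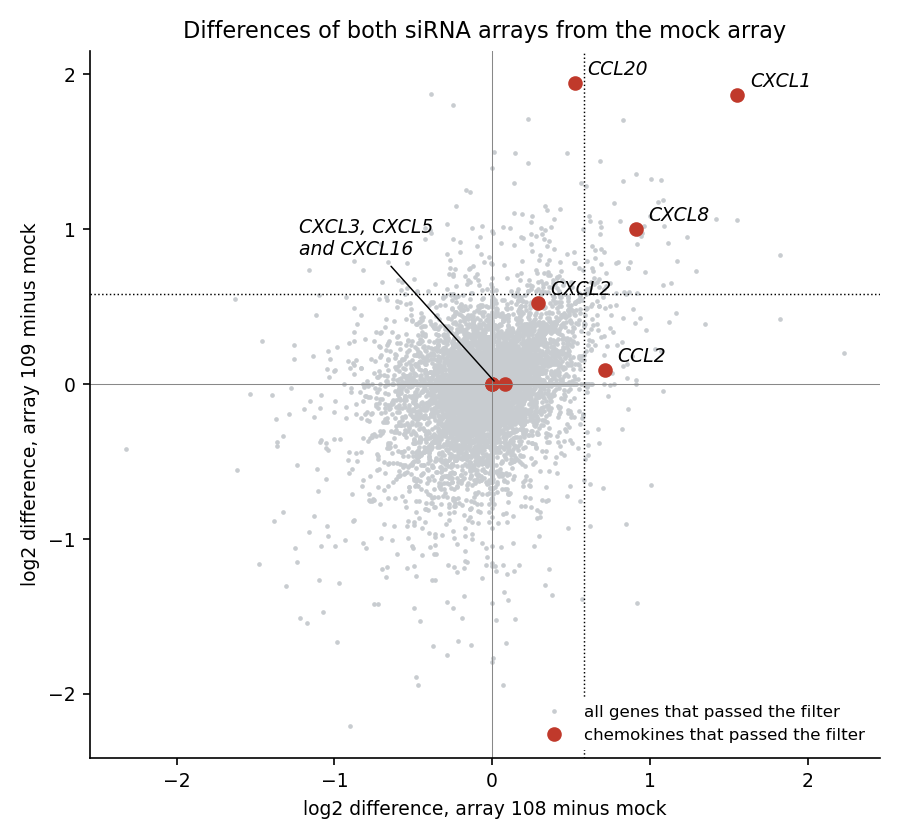
Log2 difference from the mock array on array 108 (horizontal) and array 109 (vertical) for the 20582 genes that passed the filter (grey) and the 8 chemokines among them (red), with dotted lines at 1.5-fold. CXCL1 stands at the upper right edge with 1.55 and 1.87, CCL20 at the top with 0.52 and 1.95, and CCL2 to the right with 0.71 and 0.09. Both axes share the mock array.

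On chromosome 4, 7 of the 10 genes lie in 2 chemokine clusters. In RefSeq order the protein-coding genes of the larger cluster are CXCL8, CXCL6, PF4V1, CXCL1, PF4, PPBP, CXCL5, CXCL3 and CXCL2, followed by MTHFD2L, EPGN, EREG and AREG. The genes with a higher value on both siRNA arrays (CXCL8, CXCL1 and CXCL2) were not next to each other. Between them lay CXCL6, PPBP, CXCL5 and CXCL3, below the floor on every array, and PF4V1 and PF4, platelet chemokine genes above it. PF4V1 was at 4.83 on all 3 arrays, and PF4 was at 5.78 on array 108, 5.49 on array 109 and 5.49 on the mock array. EREG, the epiregulin gene past the end of the cluster, had log2 differences from the mock array of -0.14 on array 108 and 1.24 on array 109. In the smaller cluster, CXCL9, ART3, CXCL10 and CXCL11 were below the floor on all arrays.

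**Figure D4:**
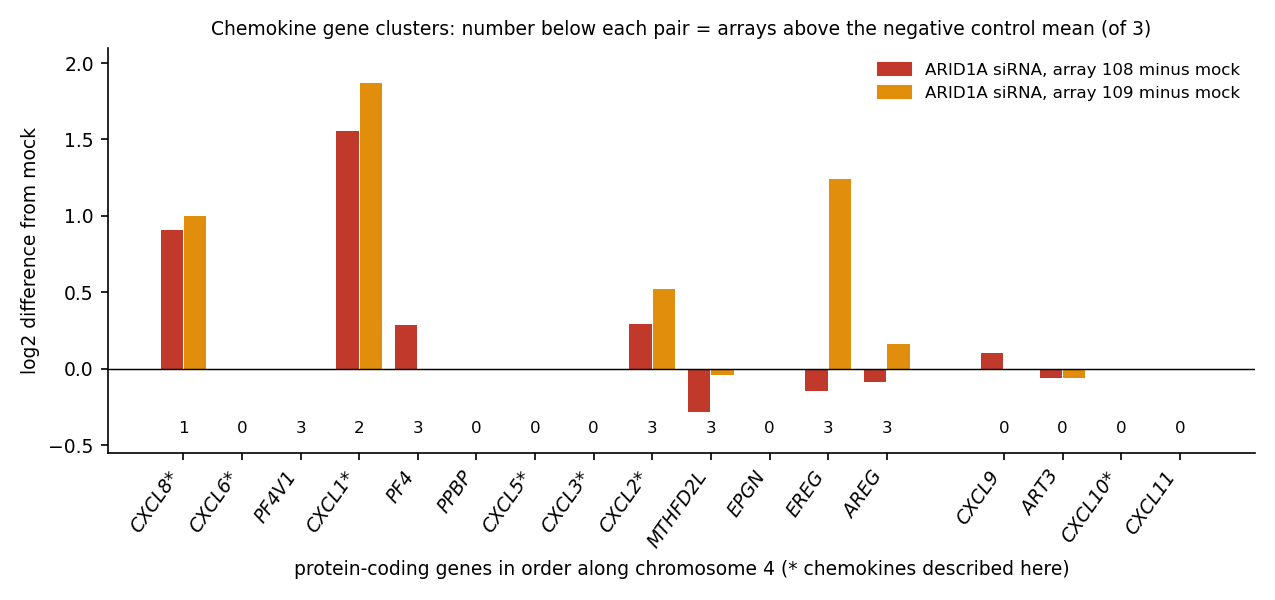
Log2 difference of array 108 (red) and array 109 (orange) from the mock array for the protein-coding genes of both chromosome 4 clusters in RefSeq order, with the number of arrays above the negative control mean under each gene. CXCL8, CXCL1 and CXCL2 have bars above 0 for both arrays. Of the genes between them, PF4 reaches 0.29 on array 108, and the others have no bar.

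The other 35 chemokine ligands measured held 0 genes at 1.5-fold on both siRNA arrays in either direction. Over all genes that passed the filter, 0.34% were higher and 0.272% lower at this threshold. Of them 24 had the same value on all 3 arrays and 23 were below the floor on all arrays, and their median difference was 0 on each siRNA array. CCL3, CCL3L3 and CCL17 were higher on both siRNA arrays, CCL3 by 0.46 and 0.06 with all its values below the floor, CCL3L3 by 0.07 on each array and CCL17 by 0.07 and 0.27. CCL3 and CCL3L3 are near-identical copies, so their values are uncertain. Lower on both siRNA arrays were CCL5, by -0.17 on each, and CCL18, by -0.10 and -0.25, with all their values below the floor. Of 23 chemokine receptors, 0 passed 1.5-fold on both siRNA arrays and 18 were below the floor on all arrays, among them CXCR1 at 2.92 and CXCR2 at 3.25 on every array, the receptors of the neutrophil chemokines. CXCR4, the receptor of CXCL12, differed by 0.25 and 0.14 and was below the floor on array 109, and ACKR1, a scavenging receptor, by 0.05 on each array, above the floor on array 108 alone. ACKR3, an atypical receptor that takes up CXCL12 and was picked after its values were seen, went apart between the siRNA arrays, at 5.34 with array 108 and 3.71 with array 109, against 5.01 in mock cells, and lay below the floor on array 109.

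Cytokines, receptors and adaptors that act upstream of these chemokines held 2 genes of 19 at least 1.5-fold higher on both siRNA arrays, beside 0.34% of all genes. This list and those below were chosen with earlier results of these data known, so their counts are no test. IL1A, an epithelial alarmin that induces CXCL1, CXCL8 and CCL20, read log2 9.95 with array 108 and 10.64 with array 109, against 9.36 in mock cells. It differed by 0.59 on array 108 and 1.28 on array 109. Whether IL1A had a part in the chemokine differences was not tested. IRAK2, a kinase of interleukin 1 and Toll-like receptor signalling, differed by 0.94 and 0.95 (7.12 and 7.13 on the siRNA arrays, against 6.18). IL1B was at 5.23 on all 3 arrays, and TNF at 4.19, below every floor.

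Among 16 NF-kB subunits, inhibitors and kinases, 3 were at least 1.5-fold higher on both siRNA arrays and 0 lower. Over all genes that passed the filter, the shares were 0.34% and 0.272%. The feedback inhibitor TNFAIP3 differed from mock by 0.83 and 1.70, NFKBIZ, an inducible nuclear cofactor, by 0.83 and 1.31, and TNIP1, a partner of TNFAIP3, by 0.64 and 0.73. The subunit NFKB2 differed by 0.41 and 0.62, whereas RELA was at 9.06 on all 3 arrays. The kinase CHUK had differences of -1.03 and 0.05, and the inhibitor NFKBIB of -0.44 and 0.17, so both were lower on array 108 alone. The median over this list was 0.13 on array 108 and 0.20 on array 109, beside 0 over all genes.

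Of 10 genes of chemokine mRNA decay and stability, 1 was at least 1.5-fold higher on both arrays, beside 0.34% of all genes. This was ZC3H12A, an RNase that cleaves inflammatory mRNAs including those of chemokines, with 1.0 and 1.09. ZFP36, a protein that binds AU-rich elements and promotes decay, differed by 0.54 and 0.39, ZFP36L1 by 0.30 and 0.38, and RC3H1 by 0.23 and 0.44. By any amount, 4 of the 10 were higher on both arrays and 3 lower, beside 13.1% and 16.2% of all genes. The lower ones were ZFP36L2 at -0.27 and -0.23, the mRNA-stabilising protein ELAVL1 at -0.11 and -0.37, and N4BP1 at -0.03 on each array. The median of this list was -0.02 on array 108 and 0.07 on array 109. Of 13 genes of chemokine processing and scavenging, 0 reached 1.5-fold on both arrays. ADAM17, a protease that sheds CXCL16, differed by 0.40 and 0.17, and the heparan sulphate proteoglycans SDC4 and SDC1, which hold chemokines at the cell surface, by 0.27 and 0.13 and by -0.12 and -0.37. Of 14 interferon-linked regulators 1 reached 1.5-fold on both arrays, beside 0.34% of all genes on the higher side. This was STAT3, by 0.60 and 0.79, a factor activated mainly by interleukin 6 family cytokines. JAK1 differed by 0.34 and 0.21, IFNGR2 by 0.26 on each array, and IFNAR1, a type I interferon receptor chain, by -0.43 and -0.22.

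**Figure D5:**
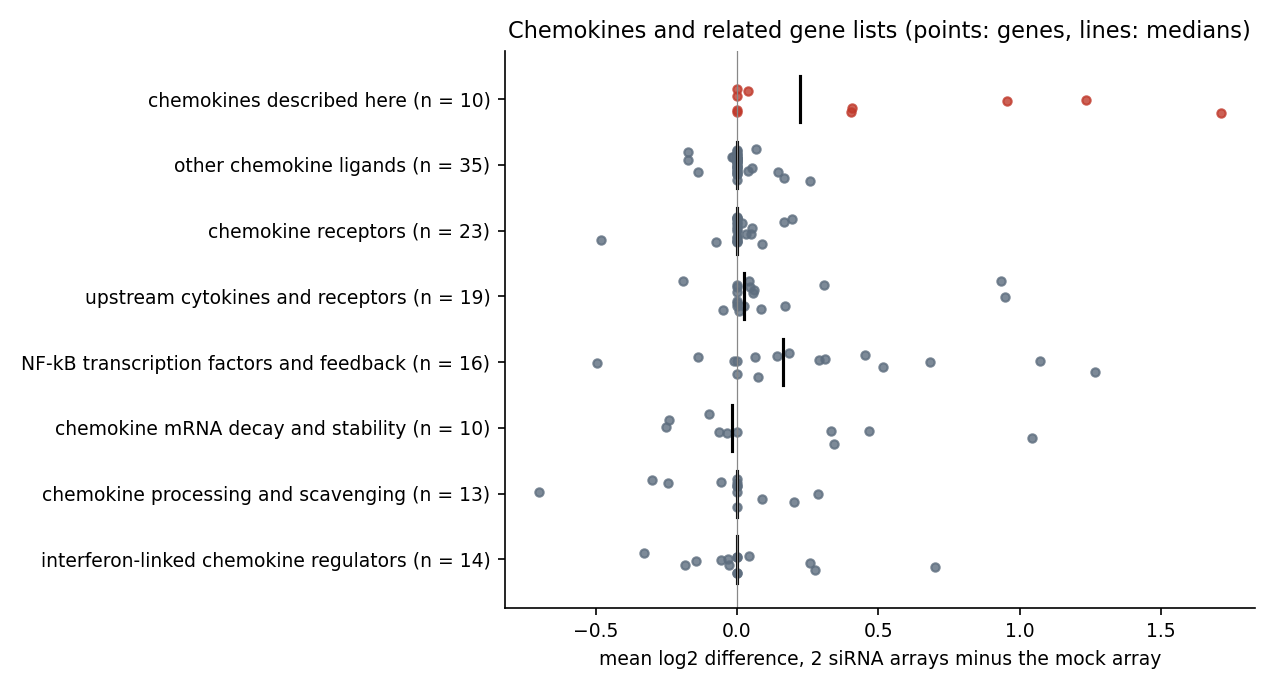
Mean log2 difference of the siRNA arrays from the mock array for each gene of 8 lists (points) with the list median (black line). The 10 chemokines spread from 0 to 1.71 around a median of 0.22, while the 35 other ligands and 23 receptors lie around medians of 0.

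The genes whose pair of differences lay nearest to that of CXCL1, by Euclidean distance over both siRNA arrays and among 13304 genes above the floor on those arrays, were TGFB2, TNFAIP3, JARID2, OR7E91P and SOCS3. Their distances ranged from 0.73 to 0.82, far above those found for the pair of chemokine medians below. CXCL1 had the highest mean difference of the genes that passed the filter, so its nearest genes had to have smaller mean differences. In these values none of the 5 exceeded CXCL1 on either siRNA array. CXCL1 was chosen on the same contrast, so this list is no evidence of a shared response. The mock value of CXCL1 was below the floor, so its differences are not exact. With mock values raised to the floor, an alternative chosen after seeing the data, 4 of these 5 remained, in another order, and FAM222B took the place of OR7E91P, with distances of 0.40 to 0.50. TGFB2, a growth factor of the TGF-beta family, differed by 1.07 and 1.32, and JARID2, a cofactor of Polycomb repressive complexes, by 1.01 and 1.32. SOCS3, a feedback inhibitor of cytokine receptor signalling, differed by 0.91 and 1.36. The pair of chemokine medians, 0.19 and 0.05, had as its nearest genes CTDSP2, TMEM127, TPD52L1, LASTR and GOLGA2, at distances of 0.0078 to 0.0143.

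Markers of cell types were checked beside these results. Of 9 squamous epithelium markers, 6 were above the floor on all arrays, and they did not move as 1 group. DSG3, a desmosomal cadherin, differed by 1.12 and 0.40, CDH1, the E-cadherin gene, by 0.53 and 0.03, and EPCAM by 0.08 and 0.06. TP63 differed by 0.16 and -0.24, SFN by 0.14 and -0.46, and the basal keratin KRT5 by 0.09 and -0.89, so these 3 lay on opposite sides of the mock array with the 2 siRNA arrays. The keratins KRT17, KRT6A and KRT14 were at or near the floor, and KRT17 differed by 0.32 and 0.11. The summed linear intensity of this list was 5862 with array 108 and 4361 with array 109, against 5044 in mock cells. The leukocyte marker PTPRC was at 2.12 and the T cell marker CD3E at 1.90 on all 3 arrays, and CD14 at 4.26, all below every floor. Of the 9 leukocyte markers 4 were above the floor on all arrays (CD68 and CSF1R among them), and the summed intensity of all 9 was 1036 and 1097 on the siRNA arrays, against 1132 on the mock array. CD68, at log2 9.86 on the mock array, made up most of that sum, so the sum says little of the other markers. CSF1R, which binds the macrophage growth factor CSF1, stood 0.97 and 0.72 above mock. By any amount on both siRNA arrays, 3 of these 9 markers were higher and 1 was lower, beside 13.1% and 16.2% of all genes. The lower one was CD68, with differences of -0.33 and -0.16. The endothelial marker CDH5 differed by 0.16 on each array and was above the floor on array 108 alone. Of 6 neutrophil markers 5, of 7 fibroblast markers 6 and of 4 endothelial markers measured 3 were below the floor on all arrays. The summed intensities of the neutrophil markers were 78.4 and 78.2 on the siRNA arrays and 77.6 on the mock array, those of the fibroblast markers 115.0 and 114.2 against 113.5, and those of the endothelial markers 56.4 on each siRNA array against 54.3. The part of CSF1R or of any other cell type in the chemokine differences was not tested beyond these levels, and with 1 mock sample the effects of knockdown, of transfection and of variation in that sample cannot be told apart.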

How the data were processed

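Total RNA of 3 SAS cell samples was hybridised to Affymetrix arrays. Expression Console is named in the submitters' processing notes; the sources used here give no version, probe summary, background correction or build. The authors' deposited matrix gives a normalized log2 value for each probe set. Their deposited tables for single samples give linear intensity, which matched the matrix within 5e-05 after taking log2. Those tables add the siRNA over mock ratio, a mark for 2-fold differences and a negative control mean, per the file headers. The controls behind that mean are not stated.

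Of 53617 probe sets, 31134 had 1 symbol, and 29766 of these took their RefSeq symbol through the Entrez identifier, whether or not it differed. Averaging probe sets gave 29402 genes. The filter kept the 20582 genes with a mean log2 value at or above the 30th percentile, 3.52. Differences are siRNA minus mock, counted at 1.5-fold on both siRNA arrays. A gene below the floor on the mock array and above the floor on both siRNA arrays is given as at least N-fold against the mock floor. limma 3.58.1 in R 4.3.3 was fitted over all genes with 1 residual degree of freedom, two-sided, with Benjamini-Hochberg adjustment. Its prior spread came from genes whose siRNA values differed by more than 0.0001, because ties give a spread of 0. The fit was tested on simulated data. Promoter windows were aligned globally with Biopython 1.88 (match 1, mismatch -1, gap opening -2, extension -0.5), and identity is per alignment column.

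Named are the 10 chemokines, ARID1A, up to 4 genes per list with the largest smaller difference in 1 direction, and the 5 genes nearest in pattern. The defining markers are named too, and 1 gene under the rule is not reported here. Chosen after their values were seen were CXCR1, CXCR2, ACKR3, IL1B, TNF, RELA, CHUK, NFKBIB, ZFP36L2, ELAVL1, N4BP1, FAM222B, CCL3, CCL5 and CCL18. The neighbours on chromosome 4 are named for their position. The members and lists were chosen with earlier results of these data known. Arrays give no counts, so the number of arrays limits the precision. The alternatives covered scaling, the floor, the probe set rule, the prior, the filter, the fold threshold, the source of the values and each siRNA array left out.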

Additional observations from a re-analysis of the deposited data

How the results depend on the processing

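The count of chemokines at 1.5-fold on both siRNA arrays was 2 in the values as deposited and under scaling by quantiles, by the median or by cyclic loess, with the highest probe set of a gene and from the linear tables, each time CXCL1 and CXCL8. It was 1, CXCL1, at 2-fold and also when values were raised to the negative control mean, which took the mean difference of CXCL8 to 0.13 and that of CXCL1 to 1.48. With 1 siRNA array left out the count was 3 in both cases, and the median of the mean differences ranged from 0.0455 to 0.19, against 0.22 with both. That median was 0.11 with values raised to the negative control mean, and 0.21 to 0.24 under the 3 scalings. The scalings and the floor moved the 4 tied chemokines off 0 by between -0.02 and 0.08. Called by limma were 0 genes in the values as fitted, on genes with untied siRNA values alone, under quantile and median scaling and with the highest probe set. Without the filter limma called 1 gene, CXCL1, in a fit with 11.8 prior degrees of freedom, against 4.65 with the filter. CXCL1 was chosen on this contrast, so that call is no independent test of it. A prior that included the tied genes called 2134 genes, with a prior SD of 0.000148 against 0.152 without them. The share of all genes at 1.5-fold on both arrays was 0.34%, 0.279% without the filter, 0.335% under quantile scaling and 0.0389% at 2-fold. Other ligands and receptors held 0 at either fold. No paired analysis was possible because the mock array is single and shares no number with both siRNA arrays.

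Signal over background limits the result. CXCL3, CXCL5, CXCL6 and CXCL10 never reached the negative control mean, so their values carry no information on a difference. CXCL8 and CXCL1 did not reach it in mock cells, nor did CXCL8 on array 109. The size of both differences is therefore uncertain, and for CXCL8 no lower bound can be given.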
